A study of Mus musculus with 59 samples.

Results

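Among the H3K27me3 islands of mouse hindbrain neurospheres, 878 autosomal regions kept an island in every K27M and every WT library and overlapped no tumour H3K4me3 peak. They were 26.9% of the 3265 autosomal regions called in all 6 hindbrain lists, and 4.17% of the 21066 autosomal regions formed by merging those lists. The remaining 2387 kept regions overlapped an H3K4me3 peak in at least 1 of the 5 tumours profiled for that mark, and 1912 of them did so in all 5. The members were chosen by the hindbrain H3K27me3 islands and the tumour H3K4me3 peaks, so hindbrain K27M and WT values below, counts of called regions included, describe the lists that chose the members and support nothing. H3K4me3 was read from tumours only, so the absence of that mark in the neurospheres themselves was not measured here.

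K27M neurospheres carried 1 H3f3a allele that, once the stop cassette before it was removed, made tagged histone H3.3 with K27M. WT neurospheres carried the same knock-in with an unchanged tagged histone. Both were cultured under neural precursor conditions from e15.5 embryos, and Nestin-cre, active in neural precursors, removed the cassette. H3K27me3 was profiled in forebrain K27M (3 libraries, all female), hindbrain K27M (3, all female) and hindbrain WT cultures (3, of which that of experiment 3 was male). Brainstem tumours of both genotypes came from mice with inducible Nestin-creERT2 that also carried a conditional PDGFRα V544ins transgene and 2 floxed Trp53 alleles. H3K27me3 and H3K27ac were profiled in 6 K27M tumours (numbers 1 to 4 male, 5 and 6 female) and 5 WT tumours (7, 8, 10 and 11 female, 9 male). H3K4me3 was profiled in K27M tumours 2 and 6 and WT tumours 7, 9 and 10. The labels do not say that replicates came from separate animals, so a p-value measures the spread between these samples.

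Polycomb repressive complex 2 writes H3K27me3, a mark of silenced chromatin. In neural precursors it lies over the promoters of many silent developmental genes, which often also carry H3K4me3, the mark of promoters, and it can spread as broad domains away from promoters. H3K27ac occupies the same lysine and marks active promoters and enhancers, so a histone tail cannot carry both. The K27M histone is known to lower H3K27me3 over most of the genome, while some regions keep the mark. Regions are named by position in mouse build mm9, counted from 1, because no gene annotation of that build was used here, and the tissue labels could not be checked against marker genes in lists of positions.

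The island lists held between 3208588 and 16323822 reads inside islands per library, both extremes being WT tumours (11 and 10). Islands covered 39.8 to 42.5 Mb of the autosomes in forebrain K27M, 37.3 to 45.6 Mb in hindbrain K27M, 144.9 to 190.6 Mb in hindbrain WT, 67.1 to 230.9 Mb in K27M tumours and 77.6 to 302.0 Mb in WT tumours. The sources used here do not state the total sequencing depth. A region outside a list may therefore lie under that library's calling limit, and a share of regions called can follow depth. In tissue and cultures made of many cells, fewer cells with the mark and less mark per cell cannot be told apart. No 2 of the 20 lists shared more than 4 identical islands.

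The members were broad as merged, and K27M islands covered less of them than WT islands did. Their median width was 17.4 kb (0.4 to 234.8 kb), against 19.4 kb for kept regions with H3K4me3, 10.4 kb for regions called in all WT and no K27M hindbrain library and free of H3K4me3 (2782, called lost regions below), and 7.0 kb for all autosomal regions. Together the members spanned 20.1 Mb. Islands of the 3 K27M libraries covered 39.9%, 34.3% and 43.1% of that length, and islands of the 3 WT libraries covered 81.0%, 81.5% and 90.0%. The median member was 40.9%, 34.9% and 45.3% covered in the K27M libraries and 84.4%, 84.5% and 93.1% covered in the WT libraries. The lowest WT median lay far above the highest K27M median. Each region is the union of islands of the 6 lists, and WT lists covered more of the autosomes. Widths and covered shares thus partly follow from the merging, and nothing is read from these contrasts. Per member, the median called length was 6.4, 5.2 and 6.8 kb in the K27M libraries and 13.0, 13.2 and 14.6 kb in the WT libraries.

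**Figure D1:**
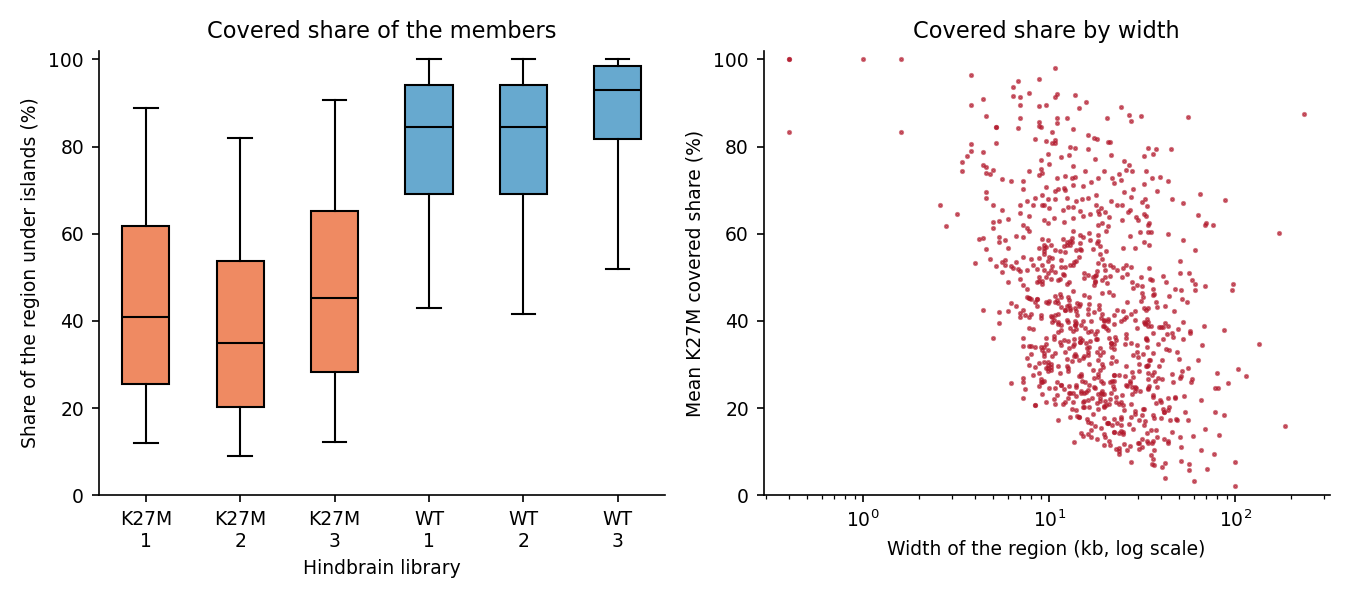
Left, the share of each member under islands (%) in each hindbrain library, K27M (orange) and WT (blue), with boxes from the 25th to the 75th percentile, a line for the median and whiskers from the 5th to the 95th percentile. Right, width (kb, log scale) against the mean covered share over the 3 K27M libraries (%), 1 point per member. The K27M medians of 34.9% to 45.3% lie below the WT medians of 84.4% to 93.1%, and wide members reach low covered shares.

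K27M islands covered a larger share of narrow members than of wide ones. The rule required an island in each list, and an island of a given length fills more of a narrow region. The median K27M covered share, averaged over the 3 libraries for each member, was 53.6% in the narrowest of 4 near-equal width groups (0.4 to 10.8 kb), then 40.2% (11 to 17.4 kb), 35.8% (17.6 to 29.6 kb) and 32.5% in the widest group (29.8 to 234.8 kb). The fall was not particular to members. Kept regions with H3K4me3 had 65.9% up to 5 kb, 35.7% over 20 and up to 50 kb, and 40.6% above 50 kb. Over all widths the median was 40.6% for members, against 41.6% for kept regions with H3K4me3. More than 80% of the width was covered in 57 members and less than 20% in 116. The read density of islands differed more between these sets. Members had a median of 29.0 reads per kb of island in K27M and 35.1 in WT, and kept regions with H3K4me3 had 41.8 in K27M and 45.6 in WT. Lost regions had 24.5 reads per kb in WT. Members held 7.42%, 6.84% and 8.19% of the autosomal island reads of the K27M libraries and 10.5%, 9.85% and 9.52% of those of the WT libraries. Kept regions with H3K4me3 held 88.8% to 91.4% in K27M and 57.8% to 62.9% in WT.

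The widest member was chr9:61268001-61502800, at 234.8 kb. Unlike most wide members it was covered nearly throughout in both genotypes, by 87.5% in K27M and 98.5% in WT on average, and it was called in all 3 forebrain and all 11 tumour libraries. The next widest, chr9:46782201-46967200, 185.0 kb, had islands over only 15.9% of its width in K27M and 87.5% in WT. At chr2:165991801-166106000 (114.2 kb) and its neighbour chr2:166107401-166279400 (172.0 kb), the covered shares were 27.4% and 60.2% in K27M, against 94.7% and 97.6% in WT. The lowest covered shares in K27M were 2.21% at chr5:139340601-139440000 and 3.20% at chr18:4797601-4858000. K27M islands of at most a few kb remained there inside merged regions of 99.4 and 60.4 kb. The WT libraries covered 57.7% to 98.6% of the first and 49.7% to 94.7% of the second. Such regions count as kept because an island over 1 bp in each list was enough.

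The densest member in WT cells was chr10:22523401-22579000, a 55.6 kb region far from H3K4me3 (71.1 kb to the nearest peak). It held 415 reads per kb of island in K27M and 198 in WT. At chr12:85895801-85929600 (33.8 kb) the density was 379 reads per kb in K27M and 133 in WT, with an H3K4me3 peak 1.05 kb outside its edge. Both were called in all 3 forebrain and all 11 tumour libraries, and neither held H3K27ac in any tumour. A handful of very small members were also dense. The 0.4 kb region chr8:126099201-126099600 and the 1.6 kb region chr4:155628401-155630000 were 100% covered in both genotypes and called in all 14 forebrain and tumour libraries. On the same stretch of chromosome 8 lay 2 more of the 5 members with the highest K27M covered share, chr8:126131201-126131600 and chr8:126142801-126143800.

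Most members lay well away from tumour H3K4me3. The median distance to the nearest H3K4me3 peak was 22.3 kb and the largest 674.8 kb, with 617 members more than 10 kb and 103 more than 100 kb away. At the other end, 101 members had a peak within 1 kb, at a median of 0.351 kb, and counting these as overlaps left 777 members. Members had a neighbouring member within 10 kb in 18.6% of cases (163), while 13.9% of kept regions with H3K4me3 had another region of their own kind within 10 kb. Joining islands within 1 kb of each other lowered the number of members to 724. Per chromosome the number ranged from 18 on chromosome 16 to 81 on chromosome 9, and the share of kept regions that were members from 19.5% on chromosome 17 to 35.7% on chromosome 18. Just outside the rule lay 407 regions without H3K4me3 called in 5 of the 6 lists. Of these 333 lacked a K27M list, and their median width was 13.0 kb.

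In counts of island reads, members shifted both ways between hindbrain K27M and WT cells. With edgeR (quasi-likelihood test, adjusted after Benjamini and Hochberg) fitted over 3334 regions called in all 6 libraries, 155 members were called higher and 280 lower in K27M relative to the other regions. Over all tested regions 54.3% were called, 25.9% higher and 28.4% lower. The same libraries chose the members, so nothing is read from these counts. The median log2 fold was -0.31 for members and -0.11 for all tested regions. Scaled to total reads instead of TMM factors, 32 members were higher and 574 lower, and the median log2 fold was -1.21 for members and -1.02 for all regions, so directions here are relative to the other kept regions. The groups did not overlap in 518 members and in 65.4% of all tested regions.

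Values of single members are given as a description, for regions picked by the size of their fold. Island reads are given here as CPM, read counts scaled to a common total over the tested regions of the comparison. At chr6:31537601-31566400 the K27M libraries had 194, 180 and 169 CPM and the WT libraries 42.2, 16.7 and 11.3 CPM, a log2 fold of 2.96 relative to the other kept regions. All 3 K27M libraries were above all 3 WT libraries there. Over the alternatives run, the log2 folds of the 5 largest increases were 1.52 to 2.06 at their lowest. At chr9:90583401-90594200 the values were 201, 272 and 101 CPM in K27M and 18.3, 26.7 and 29.5 CPM in WT. At chr1:55938601-55960200, the most abundant of the 5 largest increases, they were 847, 1012 and 806 CPM in K27M and 261, 128 and 106 CPM in WT. Going the other way, chr5:139340601-139440000 had 8.18, 11.7 and 15.7 CPM in K27M and 225, 274 and 328 CPM in WT. The libraries of the genotypes did not overlap in any of the 5 largest increases or the 5 largest decreases, which were picked for their size.

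Forebrain K27M cultures, whose lists played no part in the choice, called most members, though a smaller share than of other kept regions. An island was present in 69.7%, 60.1% and 64.7% of members in the 3 forebrain libraries, a mean of 64.8% ± 4.79 (SD, n = 3). Kept regions with H3K4me3 were called in 84.1%, 84.4% and 85.8%, lost regions in 6.18%, 4.85% and 6.43%, and all autosomal regions in 18.3%, 17.3% and 17.9%. Members stood below kept regions with H3K4me3 and above lost regions in all 3 libraries. Lost regions were chosen for having no island in hindbrain K27M lists, and the forebrain cultures share that genotype. The contrast with lost regions is thus partly set by the choice of sets, and nothing is read from it. All 3 forebrain libraries called 470 members (53.5%), none of them called 209 (23.8%), and 1 or 2 called the remaining 199. Of the kept regions with H3K4me3, 77.3% were called in all 3 and 8.67% in none. Forebrain and hindbrain cultures share experiments, so the forebrain lists are not independent of the batches that chose the members.

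**Figure D2:**
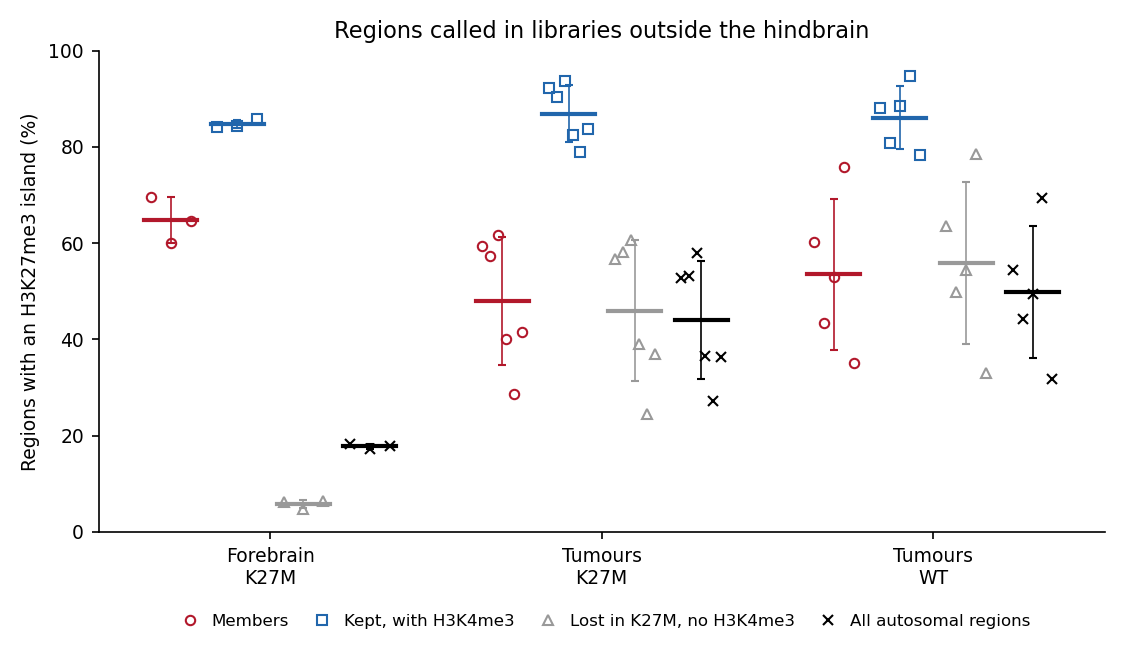
Share of regions with an H3K27me3 island (%) in each forebrain K27M library (n = 3), K27M tumour (n = 6) and WT tumour (n = 5), for members (circles), kept regions with H3K4me3 (squares), lost regions without H3K4me3 (triangles) and all autosomal regions (crosses). Thick lines are means and error bars SD. Members lie at 60.1% to 69.7% in forebrain, far above lost regions, but at 28.6% to 75.9% in tumours, close to all autosomal regions when widths are not matched. Lost regions were chosen for having no island in hindbrain K27M lists.

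The call share in forebrain grew with width, from 55.7% in the narrowest of those 4 width groups to 78.2% in the widest, so sets were also compared within 1 width class. Among regions over 10 and up to 20 kb, forebrain libraries called 54.1% to 65.1% of 318 members, 81.3% to 82.8% of 769 kept regions with H3K4me3 and 5.69% to 6.57% of 1142 lost regions. The order of the sets was thus the same at matched width, with the low place of lost regions again partly set by their choice. Where an island was called in forebrain it covered a part only. Islands covered 28.1%, 28.6% and 28.8% of the summed length of the members, and at least 50% of the region in 24.4%, 25.9% and 24.8% of members.

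Island reads were compared between forebrain and hindbrain K27M cultures, of which the hindbrain libraries also took part in choosing the members. Of the 878 members, 463 had an island assigned to them in all 6 libraries and entered the edgeR fit of 3032 regions, while 415 had none assigned in some forebrain library and were not tested. Of all tested regions 30.4% were called, 15.4% higher and 15.1% lower in forebrain. Among the tested members 120 rose and 73 fell in forebrain (25.9% and 15.8%), with a median log2 fold of 0.26, against 0.04 over all tested regions. The members left out are those at the low end in forebrain, so the excess of increases describes the tested members only.

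The largest forebrain excess was at chr14:49258201-49304400, a 46.2 kb region with no H3K27ac in any tumour. Forebrain libraries had 2415, 2815 and 2495 CPM there and hindbrain K27M libraries 32.2, 172.7 and 43.9 CPM, and the log2 fold was 4.97 (± 0.63 SE, with an edgeR adjusted p of 0.000871). Every forebrain library lay far above every hindbrain library. At chr9:29948601-29959400, forebrain libraries had 121, 119 and 187 CPM and hindbrain libraries 7.13, 7.55 and 14.0 CPM, and the log2 fold was 3.89 (± 0.33 SE, with an edgeR adjusted p of 0.000159). The third, chr14:60335601-60392000, had 152, 146 and 166 CPM in forebrain and 6.87, 15.6 and 16.6 CPM in hindbrain K27M. The same region was among the 5 largest decreases of hindbrain K27M against WT (log2 fold -3.21), and those comparisons share the hindbrain K27M libraries. Rises of 3.49 and 3.20 on the log2 scale followed at chr2:6175201-6194000 and chr15:67050001-67073000.

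The largest forebrain deficit was at chr1:76894001-76962600, 68.6 kb wide. It had 18.9, 23.8 and 20.5 CPM in forebrain and 299, 414 and 201 CPM in hindbrain K27M, and the log2 fold was -3.85 (± 0.29 SE, with an edgeR adjusted p of 0.000124). At chr5:15471201-15503800 the values were 16.0, 24.2 and 37.6 CPM in forebrain and 195, 308 and 524 CPM in hindbrain, and the log2 fold was -3.72 (± 0.44 SE, with an edgeR adjusted p of 0.000683). The third, chr10:44126801-44145600, had 9.72, 12.7 and 9.13 CPM in forebrain and 126, 93.8 and 103 CPM in hindbrain, and no tumour called it. Falls of 3.29 and 2.72 on the log2 scale were found at chr1:92202001-92289400 and chr19:15794401-15832000. In all 10 of these regions the forebrain and hindbrain libraries did not overlap, which held for 49.9% of all tested regions. None of the 5 regions that fell held H3K27ac in any tumour.

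Among the 209 members that no forebrain library called, the ones with most hindbrain reads were far above the weakest islands. At chr1:154873001-154925400 (52.4 kb), no forebrain library had an island. The K27M hindbrain libraries had 1448, 1566 and 4797 island reads there, and the WT libraries 3277, 4379 and 5755. At chr14:68471201-68505400 the counts were 1283, 1026 and 1376 reads in hindbrain K27M and 1524, 983 and 1083 in hindbrain WT. As a group these 209 members were narrower (median 14.4 kb, against 20.8 kb for the 470 called in all 3 forebrain libraries). They were also less dense in hindbrain WT cells, with 28.8 against 39.9 reads per kb.

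In tumours the members were called in shares near those of all autosomal regions, which are narrower (median 7.0 against 17.4 kb for members). Within width classes cut at 5, 10, 20 and 50 kb, the mean share of members was below that of all autosomal regions, except up to 5 kb. All autosomal regions include the kept regions with H3K4me3, which the rule took out of the members. Contrasts with all autosomal regions are thus partly set by the rule, and nothing is read from them. Up to 5 kb the means were 39.8% for members and 27.7% for all autosomal regions in K27M tumours, and 43.3% and 33.6% in WT tumours. The K27M tumours 1 to 6 called 59.3%, 57.3%, 61.7%, 40.1%, 28.6% and 41.5% of members (mean 48.1% ± 13.3, SD, n = 6). The WT tumours 7 to 11 called 60.3%, 43.5%, 53.0%, 75.9% and 35.2% (mean 53.6% ± 15.7, SD, n = 5). The ranges overlapped in part, with K27M tumour 5 below every WT tumour and WT tumour 10 above every K27M tumour. K27M tumour 5 and WT tumour 11, which called the fewest members, also had the shortest total island length (67.1 and 77.6 Mb of autosomes), and WT tumour 10, which called the most, had 302.0 Mb. Whether list length sets these shares was not tested. Kept regions with H3K4me3 were called in 79.1% to 93.8% by K27M tumours and in 78.3% to 94.8% by WT tumours. All autosomal regions were called in 27.2% to 58.0% by K27M tumours and in 31.7% to 69.3% by WT tumours.

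Set against lost regions, the members' share in tumours depended on width. Over all widths it was the higher in 6 of 11 tumours, with lost regions called in 24.4% to 60.7% by K27M tumours and in 33.0% to 78.5% by WT tumours. Among K27M tumours only number 2 had the lower share in members (57.3% against 58.2%). Among WT tumours only number 11 had the higher share in members (35.2% against 33.0%). Whether this division follows genotype was not tested. In regions of up to 5 kb, the mean share over K27M tumours was 39.8% for 36 members and 30.6% for 184 lost regions. Among regions over 10 and up to 20 kb, K27M tumours called 24.2% to 55.0% of members, against 28.4% to 66.1% of lost regions and 79.3% to 92.7% of kept regions with H3K4me3. WT tumours called 28.9% to 71.1% of members, 39.3% to 82.6% of lost regions and 76.9% to 94.3% of kept regions with H3K4me3. In this class the share of members called was below that of lost regions in 11 of 11 tumours. It was above it in 3 of 3 forebrain libraries, which the choice of lost regions partly sets. The share of members was also below that of all autosomal regions of this class in 11 of 11 tumours, with medians over tumours of 47.8% and 64.3%. That contrast is partly set by the rule, since all autosomal regions include the kept regions with H3K4me3. The class was chosen after the data were seen and the members with results known, so no p-value is given for these shares.

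All 11 tumours called 153 members (17.4%) and none called 125 (14.2%), with the other 600 spread over every number between. Over all autosomal regions the shares were 15.1% and 15.9%, and over kept regions with H3K4me3 63.9% and 1.51%. Forebrain and tumour calls went together in the members. Of the 470 called by all forebrain libraries, 117 were called in all tumours and 40 in none. Of the 209 called by no forebrain library, 9 were called in all tumours and 60 in none. Wide regions are called more easily in any list, and this was not separated from the pattern.

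**Figure D3:**
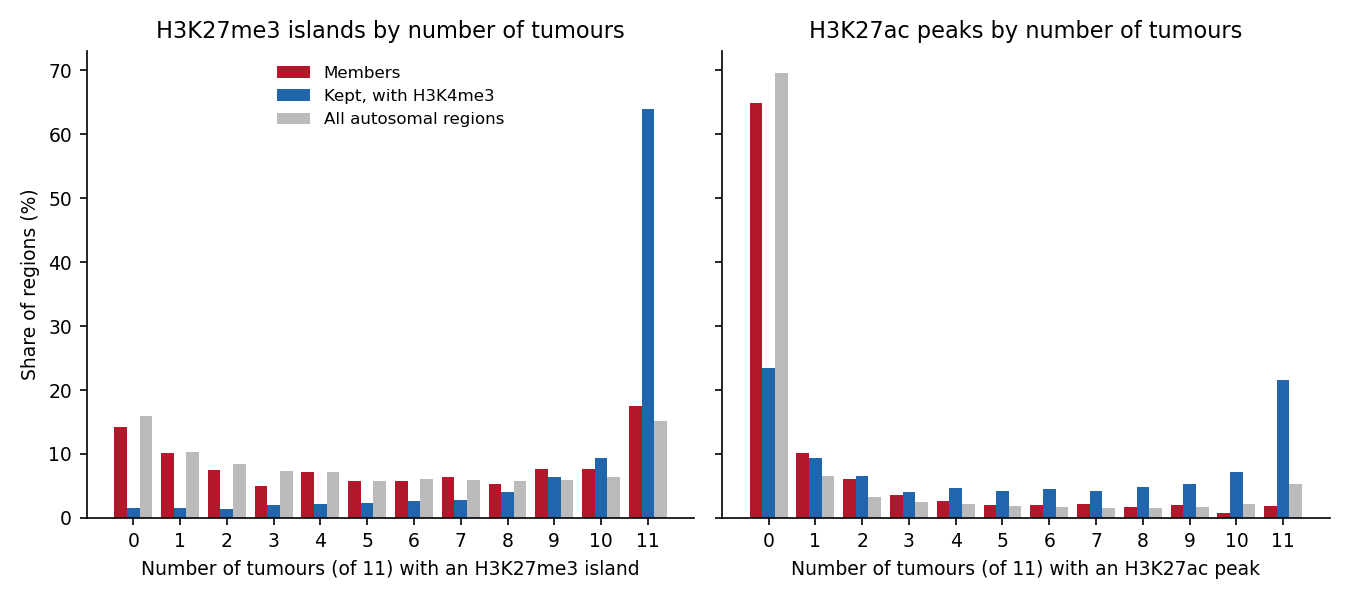
Share of regions (%) by the number of tumours, from 0 to 11, that held an H3K27me3 island (left) or an H3K27ac peak (right), for members (red), kept regions with H3K4me3 (blue) and all autosomal regions (grey). For H3K27me3 the members follow all autosomal regions (17.4% and 15.1% in all 11 tumours), while 63.9% of kept regions with H3K4me3 are called in all 11.

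The 125 members without a tumour island lay farther from H3K4me3, though not from other members. Their median distance was 49.3 kb to H3K4me3 and 446 kb to the nearest kept region with H3K4me3. The 153 members called in all tumours lay at medians of 13.4 kb and 68.0 kb. The median distance to another member was 347.2 kb for those without a tumour island and 378.2 kb for those called in all tumours. The absent group was also narrower, with a median of 11.6 kb against 20.8 kb, and better covered in hindbrain K27M cells, with 52.4% against 32.9%. The covered share falls with width among members, and the groups were not matched for width. Some members of the absent group were strong in culture. At chr12:58376401-58396600, forebrain libraries had 371, 237 and 332 island reads, hindbrain K27M libraries 798, 687 and 600, and hindbrain WT libraries 1364, 1719 and 1357, with no island in any of the 11 tumours. At chr15:86234801-86262200 the counts were 887, 722 and 645 in forebrain, 1591, 1294 and 1766 in hindbrain K27M and 1467, 1030 and 1146 in hindbrain WT. The region chr1:11722801-11756000, at 317.8 kb from the nearest H3K4me3 peak, had 730, 547 and 467 reads in forebrain, 1276, 1048 and 1254 in hindbrain K27M and 1411, 1093 and 1370 in hindbrain WT.

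No member passed the adjusted test of calls between K27M and WT tumours, which this design could hardly pass. Too few or too many tumours called the other members, which left 220 where an unadjusted p under 0.05 was possible. None of them passed Fisher's exact test (two-sided) after adjustment over 5195 such autosomal regions, where the background was 0%, and the smallest adjusted p was 0.238. With 6 K27M and 5 WT tumours, Fisher's exact p cannot fall below 0.00216. After adjustment it could fall under 0.05 only if many regions were fully divided between the genotypes, so nothing is read from this outcome. Unadjusted, 2 members were called more often in K27M and 7 more often in WT tumours, 4.09% of those tested, against a background of 6.37%. The clearest was chr13:3517001-3525200, with an island in 0 of 6 K27M tumours and 5 of 5 WT tumours (exact p = 0.00216), the only member called in every tumour of 1 genotype and none of the other, while 0.789% of all regions tested were so divided. Its WT tumour islands held 93, 161, 95, 170 and 65 reads. Islands of 4 of 5 WT and no K27M tumour were found at chr5:107597601-107622200, chr7:69412201-69432000, chr13:71502601-71514600 and chr12:58873601-58883800 (exact p = 0.0152 each). In the other direction, chr9:122624801-122637400 was called in 6 of 6 K27M tumours and 1 of 5 WT tumours, and chr8:126142801-126143800 in 5 of 6 and 0 of 5 (exact p = 0.0152 each). Most K27M tumours were male and most WT tumours female, so genotype and sex partly coincide.

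Tumour read counts could be compared at 131 members only, among 2687 regions to which an island of each of the 11 tumours was assigned, and 747 members were not tested. An island that spans several regions is assigned to the one it overlaps most, so a called member can lack one. Over all fitted regions 12.8% were called, 7.41% higher and 5.36% lower in K27M. Of the 131 members 7 rose and 5 fell (9.16%), with a median log2 fold of -0.25, against -0.11 for all fitted regions. Scaled to total reads without TMM factors, 5 rose and 16 fell, and the median over all regions was -0.34. Giving a region only the part of a tumour island's reads that lies inside it left 0 members that fell.

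The 5 members with the largest rise in K27M tumours had hindbrain WT densities of 53.8 to 198 reads per kb. The median was 35.1 for all members and 41.1 for the 153 called in all 11 tumours, among which the tested members lie. The 5 members that fell had 29.3 to 48.8 reads per kb. The lists behind these densities chose the members, so nothing is read from them. At chr14:49258201-49304400 the K27M tumours ranged from 2375 to 3703 CPM with a median of 3039, and the WT tumours from 982 to 1833 with a median of 1288, and the log2 fold was 1.20 (± 0.20 SE, with an edgeR adjusted p of 0.00264). Every K27M tumour was above every WT tumour there. The genotypes did not overlap, in either direction, at 9.01% of all fitted regions. In hindbrain cultures the same region had 57.0, 297.0 and 81.3 CPM in K27M and 126.4, 474.3 and 919.4 CPM in WT, with overlap between the genotypes (log2 fold -1.81). At chr10:19011001-19099600, 88.6 kb wide, the K27M tumours ranged from 1499 to 2098 CPM (median 1968) and the WT tumours from 785 to 1190.4 (median 1034), and the log2 fold was 0.90 (± 0.18 SE, with an edgeR adjusted p of 0.00765). At chr12:85895801-85929600 the ranges were 681 to 841 CPM in K27M and 342 to 469 CPM in WT tumours, and the log2 fold was 0.95 (± 0.18 SE, with an edgeR adjusted p of 0.00609). The region chr10:22523401-22579000 rose by 0.90 ± 0.23 (SE, edgeR adjusted p = 0.0216), although 1 K27M tumour, number 3 at 1027 CPM, lay within the WT range of 865 to 1169.6 CPM. The last of the 5, chr4:154322401-154331800, rose by 1.02 ± 0.24 (SE, edgeR adjusted p = 0.0167). That call was lost with reads split by overlap, where the adjusted p was 0.179.

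**Figure D4:**
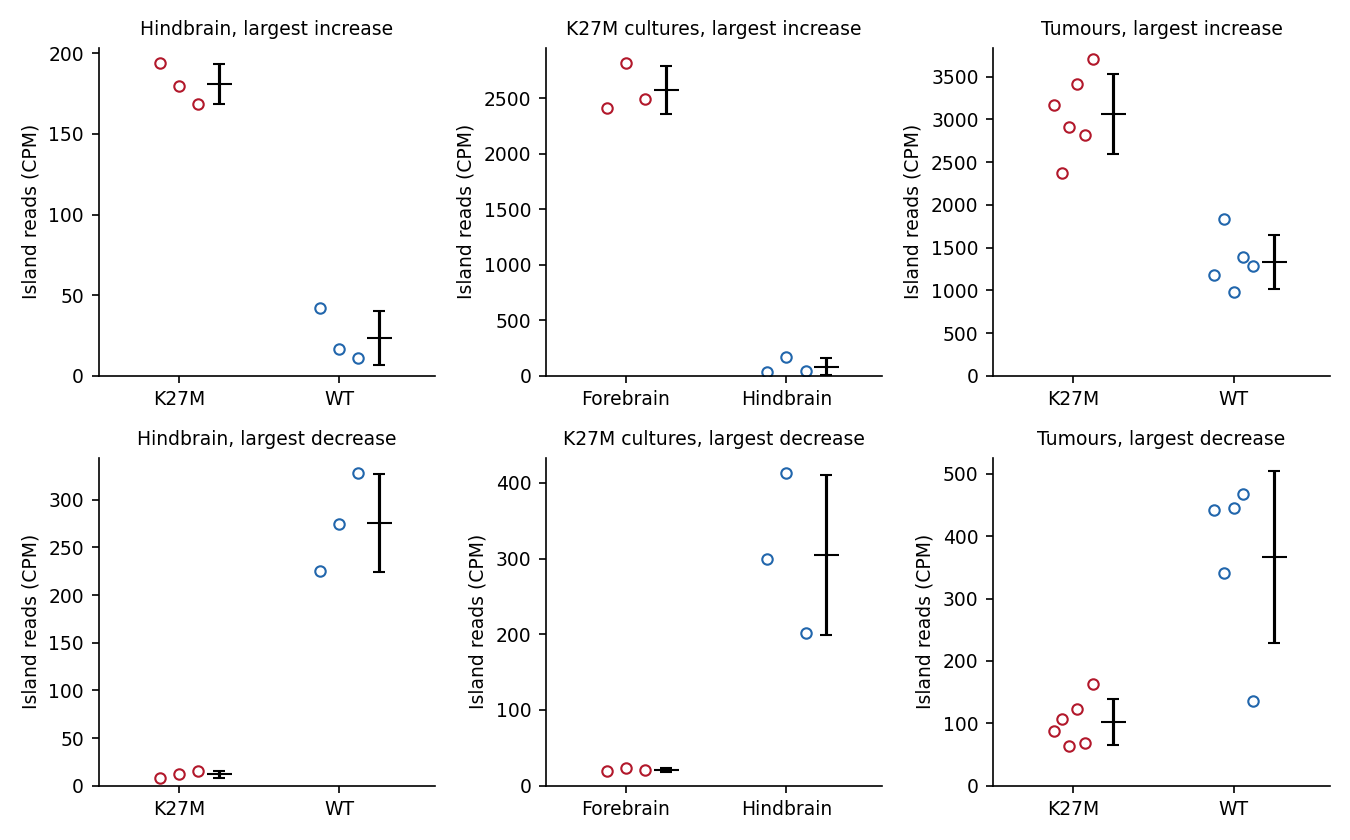
Island reads (CPM) per library at the member with the largest increase (top) and decrease (bottom) in each comparison, with tested regions of that comparison as the total. From left, hindbrain K27M against WT (chr6:31537601-31566400 and chr5:139340601-139440000), forebrain against hindbrain K27M (chr14:49258201-49304400 and chr1:76894001-76962600) and K27M against WT tumours (chr14:49258201-49304400 and chr7:107332601-107349000). Circles are libraries, and bars beside them the mean and SD; in the bottom right panel WT tumour 11 falls within the K27M range.

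Of the 5 members that fell in K27M tumours, 2 held under 16 of 17 alternatives. At chr7:107332601-107349000 the K27M tumours ranged from 63.9 to 162.9 CPM (median 97.1) and the WT tumours from 136.6 to 468.0 CPM (median 442.2), and the log2 fold was -1.84 (± 0.34 SE, with an edgeR adjusted p of 0.00499). WT tumour 11, the lowest, lay within the K27M range. At chr11:96788001-96795400 the K27M tumours had 49.6 to 103.5 CPM and the WT tumours 127.2 to 206.0 CPM, without overlap, and the log2 fold was -1.29 (± 0.26 SE, with an edgeR adjusted p of 0.00765). With reads split by overlap the adjusted p was 0.0583 at the first and 0.0672 at the second. The calls at chr9:46782201-46967200, chr5:38354801-38364200 and chr15:76758601-76770000 (log2 folds -1.43, -1.07 and -0.93) were lost under 11, 8 and 10 of 17 alternatives, sex as a covariate among them in each case.

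Hindbrain cultures and tumours are separate samples, and their calls at the 131 members can be set side by side. Of the 7 that rose in K27M tumours, 6 were called higher in hindbrain K27M cultures, and of the 5 that fell, 4 were called lower there. Among 1415 kept regions with H3K4me3 fitted in both, 140 of the 170 that rose in K27M tumours were called higher in hindbrain K27M cultures, and 20 of the 42 that fell were called lower. The sign of the log2 fold was shared at 67.2% of the members and at 65.8% of these kept regions. The hindbrain calls come from the libraries that chose both sets, so nothing is read from these counts.

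The share of members with H3K27ac was above that of lost regions, also free of H3K4me3, in 11 of 11 tumours. It was below that of all autosomal regions in 11 of 11 tumours. Both held over all widths and among regions over 10 and up to 20 kb. The rule took out regions with H3K4me3 in 5 of these tumours, while all autosomal regions include them. The contrasts with all autosomal regions and with kept regions with H3K4me3 are thus partly set by the rule, and nothing is read from them. A peak overlapped 18.2%, 9.80%, 11.7%, 8.31%, 8.31% and 14.2% of members in K27M tumours 1 to 6 (mean 11.8% ± 3.89, SD, n = 6) and 16.5%, 12.2%, 10.8%, 17.3% and 13.6% in WT tumours 7 to 11 (mean 14.1% ± 2.78, SD, n = 5). The genotypes overlapped. Of kept regions with H3K4me3, 40.2% to 54.2% held H3K27ac in K27M and 40.1% to 59.5% in WT tumours. Of all autosomal regions, 12.1% to 18.3% did in K27M and 12.4% to 19.3% in WT tumours. Per length, which does not favour wide regions, peaks covered 3209.8 to 8699.5 bp per Mb of member in K27M and 3658 to 7605 in WT tumours. Kept regions with H3K4me3 had 17296 to 28181 bp per Mb in K27M and 17413 to 32640.4 in WT tumours, and all autosomal regions 10041 to 17439.9 in K27M and 10418 to 19586 in WT tumours. Among regions over 10 and up to 20 kb, the share of members with H3K27ac was above that of lost regions and below that of kept regions with H3K4me3 in 11 of 11 tumours, with medians over tumours of 10.7% for members, 4.90% for lost regions, 49.2% for kept regions with H3K4me3 and 20.3% for all autosomal regions.

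**Figure D5:**
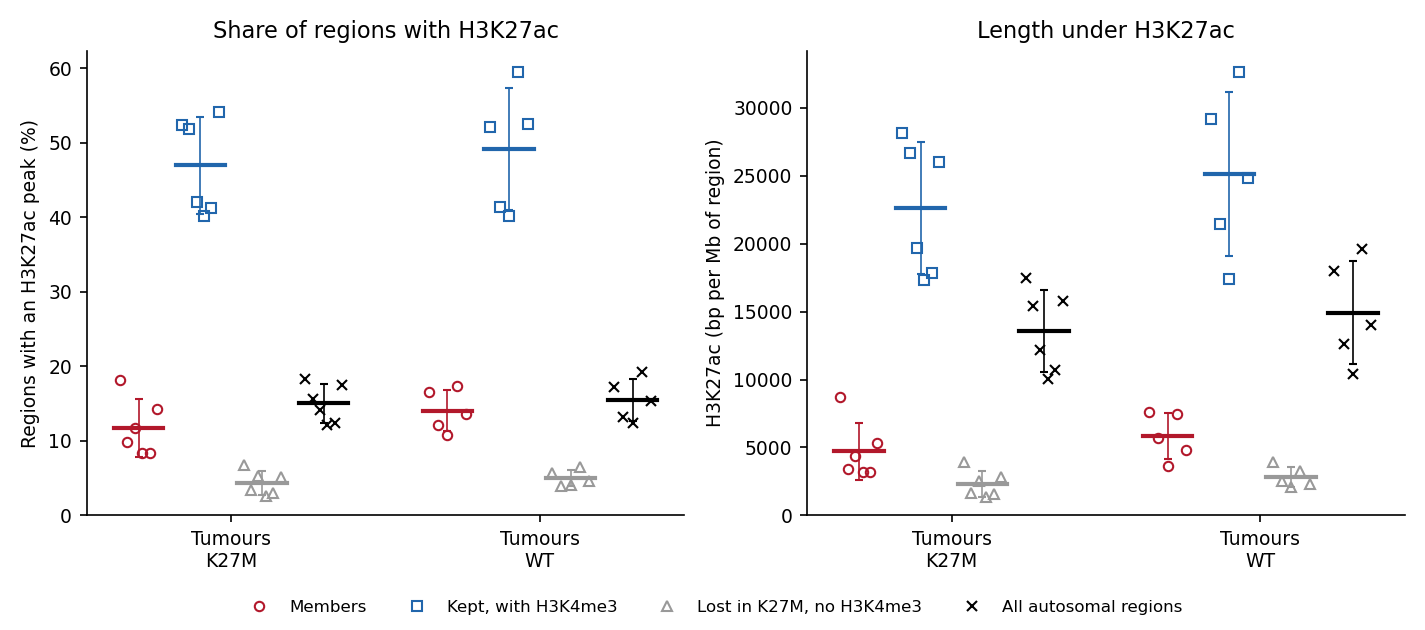
Share of regions with an H3K27ac peak (%, left) and length under H3K27ac (bp per Mb of region, right) in each K27M (n = 6) and WT tumour (n = 5), for members (circles), kept regions with H3K4me3 (squares), lost regions without H3K4me3 (triangles) and all autosomal regions (crosses). Thick lines are means and error bars SD. Members lie between lost regions and kept regions with H3K4me3 in both panels, at 8.31% to 18.2% of regions with a peak.

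Peaks that did fall in members had low significance scores, as did peaks in lost regions, which also lack H3K4me3. Their median -log10 q, the peak's own value from the authors' lists, was 5.23 to 7.47 per tumour in members. It was 5.49 to 8.52 in lost regions and 7.88 to 12.3 over all H3K27ac peaks of the same lists. Some tumour placed a peak in 308 members (35.1%), only 1 tumour did so in 89 of them, and all 11 did in 16 (1.82%). For kept regions with H3K4me3 the shares were 76.6% in any and 21.6% in all tumours, and for all autosomal regions 30.4% and 5.36%. Within a tumour, the share with H3K27ac was lower among members with an island of that tumour than among members without one in 10 of 11 tumours, the exception being K27M tumour 3 (12.7% and 10.1%). In K27M tumour 6 the shares were 9.89% with an island and 17.3% without, and in WT tumour 8 they were 8.38% and 15.1%. The share was likewise the lower with an island in 10 of 11 tumours for lost regions and in 11 of 11 for kept regions with H3K4me3, but in only 1 of 11 for all autosomal regions. Members with H3K27ac in some tumour lay closer to kept regions with H3K4me3 than members with none, at medians of 89.8 and 187.4 kb.

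The members with most H3K27ac held it in every tumour. At chr1:36684401-36704200, 19.8 kb wide and 43.6 kb from the nearest H3K4me3 peak, H3K27ac covered 2.86 to 6.27 kb in K27M tumours (median 4.64) and 1.70 to 8.84 kb in WT tumours (median 3.78). An H3K27me3 island was called there in 0 of 6 K27M and 1 of 5 WT tumours, and in all 6 hindbrain libraries. At chr1:154873001-154925400, the region that no forebrain library called, H3K27ac covered 1.87 to 6.93 kb in K27M tumours (median 3.23) and 2.23 to 9.43 kb in WT tumours (median 6.11). Its H3K27me3 island was present in 4 of 6 K27M tumours and 0 of 5 WT tumours (exact p = 0.0606, Fisher, unadjusted). The neighbouring chr2:165991801-166106000 and chr2:166107401-166279400 held H3K27ac in all 11 tumours too, over 3.71 to 6.97 kb and 2.51 to 12.8 kb in the K27M tumours, against 2.07 to 7.08 kb and 2.16 to 6.24 kb in the WT tumours. The widest member, chr9:61268001-61502800, carried both marks in every tumour, with H3K27ac over 1.88 to 7.20 kb in the K27M tumours and 2.71 to 6.47 kb in the WT tumours. The ranges of the genotypes overlapped at all 5 of these regions.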

How the data were processed

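H3K27me3 lists (20) were SICER-style islands of 200 bp windows and 600 bp gaps per the file names, with the count of whole reads per island as deposited by the authors. H3K27ac (11) and H3K4me3 (5) lists were narrowPeak files, from which positions and the deposited -log10 q value were used. The submitters' processing notes name BWA 0.7.12, SICER 1.1, MACS2 and bedtools 2.25.0, without roles, and build mm9. Each list came from 1 sample. Drosophila chromatin was added per the labels' protocols, but no scale factor was used here, so absolute amounts of a mark were not measured. The 23 input samples were not analysed here.

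Hindbrain islands were merged where they overlapped, after adding 1 base to island ends. A library called a region with 1 bp of overlap. Reads of an island went whole to the region of largest overlap. Where every library compared had an island, edgeR 4.0.16 in R 4.3.3 tested the summed reads (TMM factors, quasi-likelihood, Benjamini-Hochberg over all regions, threshold 0.05), with DESeq2 1.42.0 among the alternatives. SE is the log2 fold divided by the root of F. Fisher's exact test compared tumour calls with SciPy 1.17.1. Tested on simulated counts, the edgeR step recovered 100% of 4-fold changes in each comparison, and of 2-fold changes 71% for forebrain against hindbrain (3032 regions), 45% for hindbrain K27M against WT (3334 regions) and 27% for tumours (2687 regions). The simulation gave every region the same spread between libraries and balanced rises with falls, so these rates need not hold in the data.

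Experiment ids in the labels pair the neurosphere libraries. Deviations of same-numbered libraries had correlations of 0.18, 0.24 and 0.17 for forebrain with hindbrain K27M, and of 0.098, -0.035 and 0.019 for K27M with WT hindbrain. Members, region sets and the rule for named regions were chosen with earlier results of these data known. Named were the 5 members that ranked first by width, WT density, K27M covered share (both ends), size of called change per direction and comparison, hindbrain reads among those absent from forebrain or from tumours, Fisher p and H3K27ac length. The width class of 10 to 20 kb was chosen after seeing the data.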

Additional observations from a re-analysis of the deposited data

How the results depend on the processing

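The number of members was 918 when H3K4me3 peaks needed a -log10 q of at least 5, and 868 with at least 1000 bp of island in each list. Requiring 50% of the region to be covered lowered the mean called share of members to 25.02% in forebrain, 25.9% in K27M tumours and 32.1% in WT tumours, and left 1 member with more K27M than WT tumour calls at unadjusted p under 0.05. Members of 5 to 20 kb alone gave 56.6% in forebrain and 11.01% with H3K27ac in WT tumours. Leaving out 1 library gave 62.4% to 67.2% in forebrain, 45.4% to 52.0% in K27M and 48.0% to 58.1% in WT tumours, and H3K27ac in 10.5% to 12.5% and 13.3% to 14.9%.

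In the hindbrain fit, no TMM factors gave 32 members higher and 574 lower. Leaving out 1 library gave 97 to 155 higher, the lowest without WT 2, and 212 to 306 lower, and 87 to 119 higher and 56 to 66 lower in the forebrain fit. With experiment as a replicate block, 143 members were higher and 276 lower in hindbrain, and 133 higher and 78 lower in forebrain, and no named call was lost. In the tumour fit the members lower in K27M numbered 8 by DESeq2, 16 without TMM factors, 0 with reads split by overlap and 2 with sex as a covariate. Leaving out 1 tumour gave 2 to 7 lower, with 2 or 3 without K27M tumours 1, 3, 5 or 6 or WT tumours 7, 8 or 10, and 6 to 8 higher. By Fisher's test it gave 2 to 7 members with more K27M calls, the highest without WT tumour 10, and 7 to 19 with more WT calls, the highest without WT tumour 11. The cause was not tested. All named hindbrain and forebrain calls held under every alternative run. No named call changed direction, those of the tumour fit included. Some summary values did change direction without TMM factors. Called members of the tumour fit went from 7 higher and 5 lower to 5 higher and 16 lower. The median log2 fold went from 0.04 to -0.04 over all regions of the forebrain fit. It went from 0.07 to -0.16 for kept regions with H3K4me3 in the tumour fit. Tumour lists of few Mb limit what a missing island shows.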
